A study of Homo sapiens with 8 samples.

Results

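The genes described here are 10 that are used to follow the epithelial to mesenchymal transition (EMT): the transcription factors SNAI1, SNAI2, TWIST1, TWIST2, ZEB1 and ZEB2, the classical cadherins CDH1, CDH2 and CDH3, and vimentin (VIM). They were chosen by name, with no measured value in the rule but with earlier results of these data known. They are 10 of the 56632 genes in the count table. All 10 passed the filter on low counts, which left 18432 genes for testing.

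In EMT, epithelial cells lose their lateral junctions and polarity and gain features of motile mesenchymal cells. SNAI1 and SNAI2 (zinc finger proteins of the Snail family), ZEB1 and ZEB2 (zinc finger and homeodomain proteins) and TWIST1 and TWIST2 (basic helix-loop-helix proteins) are known to repress epithelial genes by binding E-boxes, short DNA elements with the core CANNTG. CDH1 (E-cadherin) is the best known of these targets, CDH2 (N-cadherin) is the cadherin of many mesenchymal and neural cells, CDH3 (P-cadherin) is typical of basal mammary epithelium, and vimentin is the intermediate filament protein of mesenchymal cells. MCF10A cells in culture are of basal type and carry some of these genes without being mesenchymal.

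Poly A+ RNA was sequenced from 4 isogenic human breast lines grown as acini in Matrigel, an extract of basement membrane, with 2 biological replicates per line. M1 is MCF10A, a non-tumorigenic and spontaneously immortalized mammary epithelial line. M2 (MCF10AT1k.cl2) is MCF10A that carries activated T24-HRAS and was selected as a xenograft, and M3 (MCF10Ca1h) and M4 (MCF10CA1a.cl1) came from carcinomas that arose from M2 xenografts, M3 carcinomas being well differentiated and those of M4 poorly differentiated. Each stage is thus 1 line, and a difference between stages cannot be told apart from a difference between these lines. By the methods of the study, all were kept for 8 days in medium with 2% horse serum, hydrocortisone, cholera toxin and insulin. M1 and M2 received 10 ng/ml of EGF, the ligand of the EGF receptor, whereas M3 and M4 received none, so line and EGF cannot be told apart when M3 or M4 is set against M1 or M2. The methods of the study print the lines given EGF as M2-M2, which is read here as M1 and M2. On that reading, only the comparisons of M2 with M1 and of M4 with M3 share a medium.

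Library totals ran from 69669970 to 107350344 counts. The coefficient of variation between replicates, estimated over the genes tested, was 0.377 in M1 cells, 0.0574 in M2 cells, 0.307 in M3 cells and 0.271 in M4 cells, and even the M2 replicates differed beyond sampling noise (chi-square per degree of freedom 6.37, near 1 for a library sampled again). By the coefficient of variation the replicates of M1 stood farthest apart, and by chi-square those of M3 (269.6, against 219 in M1 cells). The M1 libraries differed 7.36-fold for VIM and 8.20-fold for ZEB2, and the M3 libraries 7.57-fold for ZEB2. A supplementary expression table of the study exchanges 2 of the libraries: over the 253 genes of it used here, its column for M2 replicate 1 was closest to the library labelled M1 replicate 2 (Pearson's r 0.980 across genes, which are not independent), and its column for M1 replicate 2 was closest to the library labelled M2 replicate 1 (r 0.955). The sample labels are used here, and values with these 2 libraries exchanged or both left out are given where they change a call. With the labels as given, edgeR called 622 genes between M2 and M1. With the exchange it called 0, with or without a minimum fold, and with both left out 29. Leaving out 1 M2 library had a like effect, with 2 calls without M2 replicate 1 and 0 without M2 replicate 2, whereas without 1 M1 library 573 and 875 were called. HRAS, the transfected gene, read 154 and 139 CPM (counts scaled to a common library size) in M1 cells, 159.8 and 153 in M2 cells, 269 and 327 in M3 cells, and 335 and 352 in M4 cells, so that its level does not separate M2 from M1. The 6 basal markers (KRT5, KRT14, KRT17, TP63, ITGA6 and ITGB4) were above 1 CPM in every library and summed to between 9161 and 15034 CPM in M1, M2 and M3 and to 8347 and 6877 in M4. They did not move together. From M1 to M4 KRT5 went from 8411 and 6202 CPM to 3268 and 2837, but KRT17 from 1140 and 1656 to 3311 and 2117. ITGA6 went from 291 and 420 to 732 and 941 and ITGB4 from 737 and 766 to 998 and 939. In M4 against M1, 1 of the 6 was called higher and 3 lower. The luminal list (KRT8, KRT18, KRT19, EPCAM, GATA3 and ESR1) summed to between 1269 and 2422 CPM in M1 to M3 and to 4554 and 2908 in M4, with KRT19 under 4 CPM everywhere. KRT8 and KRT18 were its highest genes, whereas GATA3 fell from 74.7 and 98.4 CPM in M1 to 14.7 and 16.5 in M4. In M4 against M1, 3 of these 6 were called higher and 1 lower. Neither sum therefore stands for all of its markers. Of 8 fibroblast markers COL1A2 was at 0 in every library, and the list summed to 60.3 and 9.35 CPM in M1 cells, 74.8 and 72.7 in M2 cells, 16.2 and 17.8 in M3 cells and 7.61 and 6.47 in M4 cells. DCN was the highest of them in M1 replicate 1 and in M2, and COL1A1 in M1 replicate 2, M3 and M4. Endothelial and blood markers, led by CD68, summed to between 5.96 and 51.7 CPM, with HBB at 0. The part of these lists in the results below was not tested.

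The members covered a wide range of levels. Set against each other per kilobase of annotated exon, the mean over all 8 libraries was 149 CPM per kilobase for VIM, 47.2 for CDH3, 29.4 for CDH1 and 19 for SNAI2. The remaining 6 lay far lower, at 2.95 for TWIST1, 1.19 for TWIST2, 0.993 for SNAI1, 0.427 for CDH2, 0.155 for ZEB2 and 0.0916 for ZEB1. Epithelial and basal cadherins thus stood with VIM and SNAI2 at the top, while N-cadherin and both ZEB factors were scarce. The order differed between lines: in M4 the mean of SNAI1 (2.49) was above that of TWIST1 (1.64), and TWIST2 (0.0995) and ZEB2 (0.0175) were below ZEB1 (0.126). The order of the means over all libraries was the same when the longest transcript was used as the length. Between the highest and the lowest library the CPM of CDH3 differed 1.60-fold and that of CDH1 1.76-fold, against 34.2-fold for VIM, 35.3-fold for TWIST2 and 36-fold for ZEB2. A joint test over the 4 lines (edgeR's quasi-likelihood F test, adjusted over all genes tested) passed for SNAI1, SNAI2, TWIST2 and CDH1, 4 of the 10, where 36.4% of all genes tested did. In bulk RNA, fewer cells that express a gene and less RNA per cell cannot be told apart.

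**Figure D1:**
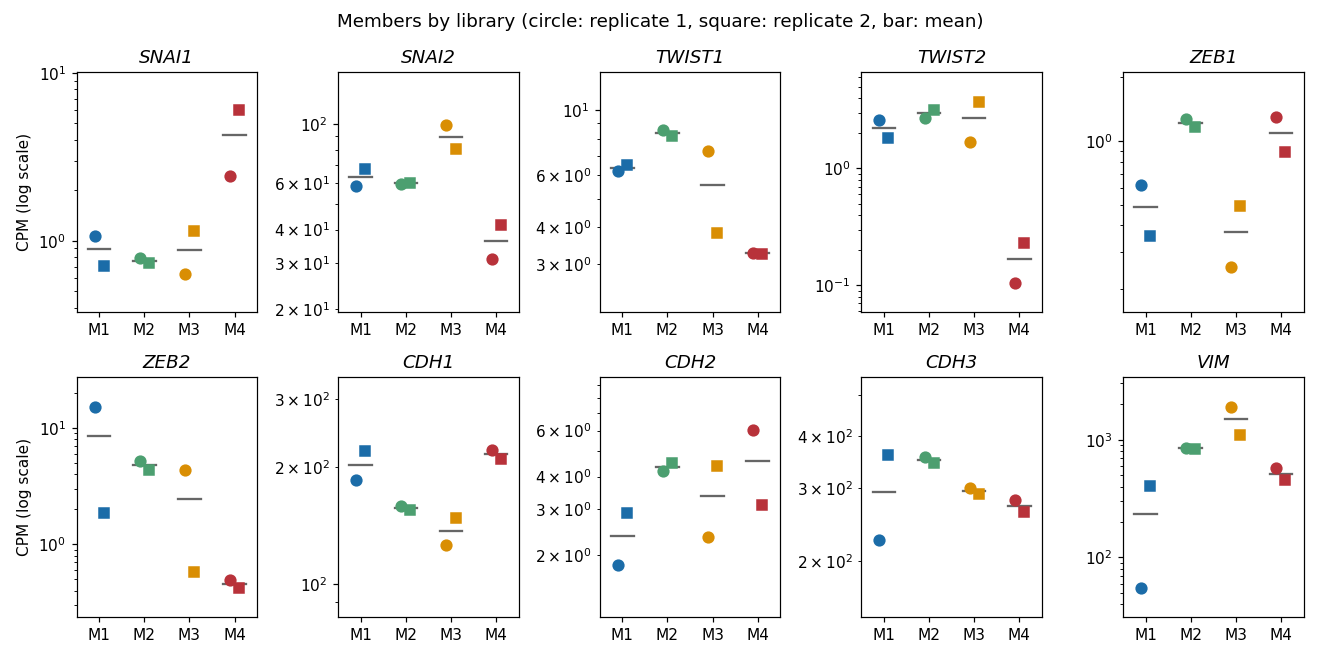
CPM of each of the 10 genes (y axis, log scale, a range of its own in each panel) in the 2 libraries of M1, M2, M3 and M4 (x axis), with circles for replicate 1, squares for replicate 2 and bars for the mean. SNAI1 was highest and TWIST2 lowest in both M4 libraries, and the M1 libraries of VIM and ZEB2 stood 7.36-fold and 8.20-fold apart.

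SNAI1 (ENSG00000124216, GRCh37 chr20:48599517-48605423, plus strand) was higher in M4 than in any other line. It read 1.08 and 0.707 CPM in M1 cells, 0.786 and 0.739 in M2 cells, 0.631 and 1.14 in M3 cells, and 2.44 and 6.03 in M4 cells, from 50 to 99 counts in the first 3 lines and 277 and 471 in M4 cells. Both M4 libraries lay above all 6 others, and the nearest of those, M3 replicate 2, was 2.15-fold below the lower M4 library. The rise in M4 was 4.74-fold against M1 (log2 2.25 ± 0.536 SE, adjusted p = 0.0168 from edgeR), 5.54-fold against M2 (log2 2.47 ± 0.542, adjusted p = 0.0168 from edgeR) and 4.78-fold against M3 (log2 2.26 ± 0.537, adjusted p = 0.0285 from edgeR). These 3 comparisons share both M4 libraries, which were themselves 2.47-fold apart. Among the other lines the M2 libraries lay between those of M1, and the M3 libraries spanned both.

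The call on SNAI1 rests on few libraries. Against M1 it was lost without M4 replicate 2 (log2 1.47, adjusted p = 0.108 from edgeR), without M1 replicate 2 (1.98, 0.0829), with the 2 doubted libraries exchanged (2.19, 0.0519) and with both left out (1.98, 0.128). Against M2 it was lost without M4 replicate 2 (1.70, adjusted p = 0.0905 from edgeR), without M2 replicate 1 (2.52, 0.121), without M2 replicate 2 (2.43, 0.125) and with both doubted libraries left out (2.51, 0.101). Against M3 it was lost in 7 of 17 alternatives, namely with the 2 doubted libraries exchanged (2.26, adjusted p = 0.0652 from edgeR), with both left out (2.25, 0.0505), without M4 replicate 2 (1.48, adjusted p = 0.143 from edgeR), without M3 replicate 1 (1.89, 0.129) and replicate 2 (2.74, 0.0510), and without M2 replicate 1 or 2 (0.0626 and 0.0625). The direction held in all of them. The joint test over the lines was lost for SNAI1 with both doubted libraries left out (adjusted p = 0.0589 from edgeR) and without M4 replicate 2 (0.127).

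SNAI2 (ENSG00000019549, GRCh37 chr8:49830157-49834299, minus strand), the second Snail factor and a gene of basal mammary cells, went the other way. It read 58.3 and 68.0 CPM in M1 cells, 59.5 and 60.0 in M2 cells, 98.9 and 80.2 in M3 cells, and 31.0 and 41.6 in M4 cells. Both M4 libraries were below, and both M3 libraries above, all others. SNAI2 fell by 1.30 ± 0.186 on the log2 scale in M4 against M3, where both lines grew without EGF, a 2.47-fold decrease (adjusted p = 0.00617 from edgeR) that kept its call under all 17 alternatives (adjusted p from 1.78e-09 to 0.0450). Against M1 (log2 -0.80 ± 0.184, adjusted p = 0.0150 from edgeR) and M2 (-0.72 ± 0.184, adjusted p = 0.0291 from edgeR) the differences passed the test but were under 2-fold, and so were not called. With the exchange of the 2 doubted libraries the difference from M1 no longer passed (-0.70, adjusted p = 0.0745 from edgeR), and with 1 library left out the adjusted p reached 0.0873 against M1 and 0.155 against M2. Without M4 replicate 2 the difference from M1 was -1.0 and was called (adjusted p = 0.0217 from edgeR). The rise in M3 did not pass, at log2 0.50 against M1 (adjusted p = 0.0874 from edgeR) and 0.58 against M2 (0.111).

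The balance of the Snail factors moved with these opposite changes. Per kilobase, the SNAI2 level was 28.2 and 49.9 times that of SNAI1 in M1 cells, 39.4 and 42.2 times in M2 cells, 81.4 and 36.7 times in M3 cells, and 6.61 and 3.58 times in M4 cells. SNAI2 therefore remained the more abundant of the pair in every library, and the M4 ratios did not overlap those of the other lines.

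TWIST2 (ENSG00000233608, GRCh37 chr2:239756673-239832230, plus strand) fell in M4 against each of the other lines. It read 2.61 and 1.83 CPM in M1 cells, 2.72 and 3.18 in M2 cells, 1.69 and 3.73 in M3 cells, and 0.106 and 0.231 in M4 cells, from 134 to 325 counts in the first 6 libraries against 12 and 18. The higher M4 library was 7.34-fold below the lowest of the 6 others. In M4 TWIST2 was 13.4-fold lower than in M1 cells (log2 -3.74 ± 0.570, adjusted p = 0.00293 from edgeR), 17.8-fold lower than in M2 cells (-4.15 ± 0.578, adjusted p = 0.00324 from edgeR) and 16.3-fold lower than in M3 cells (-4.03 ± 0.575, adjusted p = 0.00613 from edgeR). It was called in each of the 3 comparisons under all 17 alternatives, with log2 fold changes from -4.76 to -3.25 and adjusted p up to 0.0492. Among M1, M2 and M3 no difference in TWIST2 passed the test, and the M3 libraries, 2.20-fold apart, spanned those of both other lines.

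TWIST1 (ENSG00000122691, GRCh37 chr7:19060614-19157259, minus strand), the closest relative of TWIST2, was also lowest in M4, by less. It read 6.20 and 6.51 CPM in M1 cells, 8.54 and 8.17 in M2 cells, 7.27 and 3.82 in M3 cells, and 3.29 and 3.25 in M4 cells. The M4 libraries lay below all others, but only 1.16-fold below M3 replicate 2. TWIST1 was called lower in M4 than in M2, 2.56-fold (log2 -1.35 ± 0.321, adjusted p = 0.0222 from edgeR). Against M1 it gave -0.96 ± 0.319 (adjusted p = 0.0537 from edgeR) and against M3 -0.76 ± 0.318 (adjusted p = 0.137 from edgeR). The call against M2 was lost with the 2 doubted libraries exchanged (-1.17, adjusted p = 0.0904 from edgeR), with both left out (-1.32, 0.132), without M2 replicate 1 (-1.32, 0.134) or 2 (-1.39, 0.118) and without M4 replicate 1 (-1.36, 0.105) or 2 (-1.32, 0.100). Against M3 it was called without M3 replicate 2 (-1.16, 0.0254). Per kilobase the TWIST1 level was 2.01 and 3.01 times that of TWIST2 in M1 cells, 2.66 and 2.17 times in M2 cells, 3.64 and 0.867 times in M3 cells, and 26.3 and 11.9 times in M4 cells.

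ZEB2 (ENSG00000169554, GRCh37 chr2:145121931-145278624, minus strand) was lowest in M4, but its replicates disagreed in M1 and in M3. It read 15.2 and 1.85 CPM in M1 cells, 5.20 and 4.36 in M2 cells, 4.34 and 0.574 in M3 cells, and 0.493 and 0.423 in M4 cells, the last from 56 and 33 counts. Both M4 libraries were below all others, although M3 replicate 2 was only 1.16-fold above them. ZEB2 was called lower in M4 than in M1 (log2 -4.21 ± 1.21, adjusted p = 0.0349 from edgeR), an 18.5-fold difference of fitted levels. Without M1 replicate 1 it was -1.99 (adjusted p = 0.165 from edgeR). The call was also lost in a fit of M1 and M4 alone (-4.21, adjusted p = 0.0510 from edgeR), without M2 replicate 1 (0.0795) or 2 (0.0801), and without M4 replicate 1 (-4.32, 0.143) or 2 (-4.09, 0.167). Against M2, whose replicates were 1.19-fold apart, ZEB2 was 10.4-fold lower in M4 and not called (-3.38 ± 1.17, adjusted p = 0.0784 from edgeR), yet it was called with DESeq2 (-3.36, adjusted p = 0.0285), in a fit of M2 and M4 alone (-3.36, adjusted p = 0.00147 from edgeR), and without M1 replicate 1 (-3.36, 0.0310), M1 replicate 2 (-3.38, 0.0286) or M3 replicate 1 (-3.38, 0.0495). Against M3 it gave -2.42 ± 1.14 (adjusted p = 0.184 from edgeR).

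ZEB1 (ENSG00000148516, GRCh37 chr10:31607424-31818742, plus strand) had the lowest mean over all libraries per kilobase, and no difference in it was called. It read 0.616 and 0.354 CPM in M1 cells, 1.27 and 1.17 in M2 cells, 0.253 and 0.494 in M3 cells, and 1.30 and 0.884 in M4 cells, from 20 to 148 counts. M2 and M4 lay above M1 and M3 without overlap. The log2 differences were 1.32 ± 0.501 for M2 against M1 (adjusted p = 0.168 from edgeR), 1.17 ± 0.50 for M4 against M1 (0.112), -1.70 ± 0.509 for M3 against M2 (0.0996) and 1.55 ± 0.507 for M4 against M3 (0.0733). DESeq2 called the last pair (-1.70, adjusted p = 0.0379, and 1.57, adjusted p = 0.0367). ZEB1-AS1, which lies on the opposite strand and shares 396 exonic bases with ZEB1, held 22 to 101 counts, in the range of ZEB1 itself. The sources used here do not state whether strand was used in counting, and without it reads from the shared bases cannot be told apart. The ZEB2 level per kilobase was 8.16 and 1.73 times that of ZEB1 in M1 cells, 1.36 and 1.24 times in M2 cells, 5.69 and 0.385 times in M3 cells, and 0.125 and 0.158 times in M4 cells, so ZEB1 was the more abundant of the pair in both M4 libraries and in M3 replicate 2.

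The RefSeq promoter table (GRCh38.p14) held 5 of the 10 genes, namely TWIST2, ZEB1, ZEB2, CDH2 and VIM. Sequence from before the start of transcription is shown for TWIST2, a factor called in every M4 comparison, for the first of 7 listed starts of ZEB1, which holds E-boxes, and for CDH2 (its first listed start) and VIM, which are read as mesenchymal markers. Each runs 5′ to 3′ on the strand of the gene, in lower case, with matches to CANNTG on either strand in capitals. That of TWIST2, chr2:238847835-238848031 on the plus strand, is 197 bases and ends before the first base of an annotated transcript. Those of ZEB1, chr10:31318167-31318416 plus, CDH2, chr18:28177131-28177380 minus, and VIM, chr10:17227991-17228240 plus, are the 250 bases before the start.
TWIST2: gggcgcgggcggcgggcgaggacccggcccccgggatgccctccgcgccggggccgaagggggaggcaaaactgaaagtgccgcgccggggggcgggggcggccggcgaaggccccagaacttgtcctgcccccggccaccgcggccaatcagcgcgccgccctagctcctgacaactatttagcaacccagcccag
ZEB1: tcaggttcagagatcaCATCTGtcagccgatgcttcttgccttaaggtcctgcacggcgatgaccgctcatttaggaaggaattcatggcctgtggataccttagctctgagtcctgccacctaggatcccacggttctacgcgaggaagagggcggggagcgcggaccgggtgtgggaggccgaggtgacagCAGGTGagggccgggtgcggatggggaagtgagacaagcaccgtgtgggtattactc
CDH2: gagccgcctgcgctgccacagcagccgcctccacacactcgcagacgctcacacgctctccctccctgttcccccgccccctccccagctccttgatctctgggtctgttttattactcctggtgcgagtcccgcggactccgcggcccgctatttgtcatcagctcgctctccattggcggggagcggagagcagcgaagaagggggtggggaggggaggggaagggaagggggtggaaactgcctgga
VIM: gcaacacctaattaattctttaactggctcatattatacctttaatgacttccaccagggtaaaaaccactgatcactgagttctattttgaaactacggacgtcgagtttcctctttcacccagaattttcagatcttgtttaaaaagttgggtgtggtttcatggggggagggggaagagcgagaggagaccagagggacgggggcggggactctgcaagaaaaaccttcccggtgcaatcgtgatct
The ZEB1 window held 2 matches, CATCTG at 234 and CAGGTG at 57 bases before the start, the second being the form of E-box that Snail and ZEB factors bind. The windows shown of TWIST2, CDH2 and VIM held none. Which start is read matters: of the 7 ZEB1 starts, 4 held CANNTG and 3 held none, the second CDH2 start held CAGATG at 97 bases, and the ZEB2 window held CACATG at 180. Of all 35116 windows of 250 bases in the table, 61.8% held CANNTG and 17.5% held CAGGTG or CACCTG, which are the same element read on opposite strands and a subset of CANNTG. A match is a string of letters and not a measured binding site.

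CDH1 (ENSG00000039068, GRCh37 chr16:68771195-68869440, plus strand), the main adhesion protein of epithelial junctions and a target of the factors above, was abundant in every line, M4 included. It read 185 and 220.1 CPM in M1 cells, 159 and 156 in M2 cells, 126 and 148 in M3 cells, and 222 and 211 in M4 cells. M3 lay below both M1 and M4 without overlap, M2 lay between, and of the M4 libraries 1 fell within the range of M1 and 1 just above it. The decrease in M3 against M1 (log2 -0.56 ± 0.147, adjusted p = 0.0316 from edgeR) and the increase in M4 against M3 (0.66 ± 0.147, adjusted p = 0.0232 from edgeR) passed the test and were under 2-fold. M4 against M1 gave 0.09 ± 0.146 (adjusted p = 0.659 from edgeR). Both passes were lost with the 2 doubted libraries exchanged (-0.33 and 0.66, adjusted p = 0.471 and 0.125 from edgeR), and without any 1 of the M2 libraries, the M4 libraries or M3 replicate 1 (adjusted p from 0.0548 to 0.117), and that of M3 against M1 also without M1 replicate 2 (-0.43, 0.118). With both doubted libraries left out they gave -0.43 (adjusted p = 0.288 from edgeR) and 0.65 (0.0714). The joint test was lost as well, with the exchange (adjusted p = 0.244 from edgeR) and with both left out (0.148).

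CDH3 (ENSG00000062038, GRCh37 chr16:68670092-68761371, plus strand) lies 9823 bases upstream of CDH1 in the same orientation. It read 225 and 360.2 CPM in M1 cells, 355 and 345 in M2 cells, 299.7 and 289 in M3 cells, and 280.0 and 262 in M4 cells. The M1 libraries alone spanned the range of all 3 other lines, and no difference in CDH3 passed the test (adjusted p from edgeR 0.248 to 0.982 over the 6 comparisons). CDH2 (ENSG00000170558, GRCh37 chr18:25512843-25757910, minus strand) read 1.84 and 2.90 CPM in M1 cells, 4.18 and 4.49 in M2 cells, 2.35 and 4.39 in M3 cells, and 6.04 and 3.11 in M4 cells. Its M1 libraries lay below those of M2 and M4, while M3 and M4 each spread widely, and no difference passed (log2 0.87 ± 0.448 for M2 against M1, adjusted p = 0.288 from edgeR, and 0.95 ± 0.448 for M4 against M1, adjusted p = 0.145 from edgeR).

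As shares of the 3 classical cadherins per kilobase, CDH2 made up 0.325% and 0.364% in M1 cells, 0.592% and 0.653% in M2 cells, 0.403% and 0.730% in M3 cells, and 0.869% and 0.477% in M4 cells. By the longest transcript in place of the annotated exons the CDH2 share was higher in each library, from 0.511% in M1 replicate 1 to 1.36% in M4 replicate 1, with 1.13% in M3 replicate 2 and 1.01% in M2 replicate 2. By either length it was the smallest of the 3 shares in all 8 libraries. CDH1 made up between 30.6% and 46.3%. The ratio of CDH3 to CDH1 was 1.15 and 1.56 in M1 cells, 2.12 and 2.11 in M2 cells, 2.25 and 1.86 in M3 cells, and 1.20 and 1.18 in M4 cells, so that M2 and M3 lay above M1 and M4 without overlap. With the 2 doubted libraries exchanged, M1 would hold 1.15 and 2.12 (mean 1.64) and M2 1.56 and 2.11 (mean 1.83), and M1 and M2 would overlap. These ratios are descriptions, and no test was made on them.

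**Figure D2:**
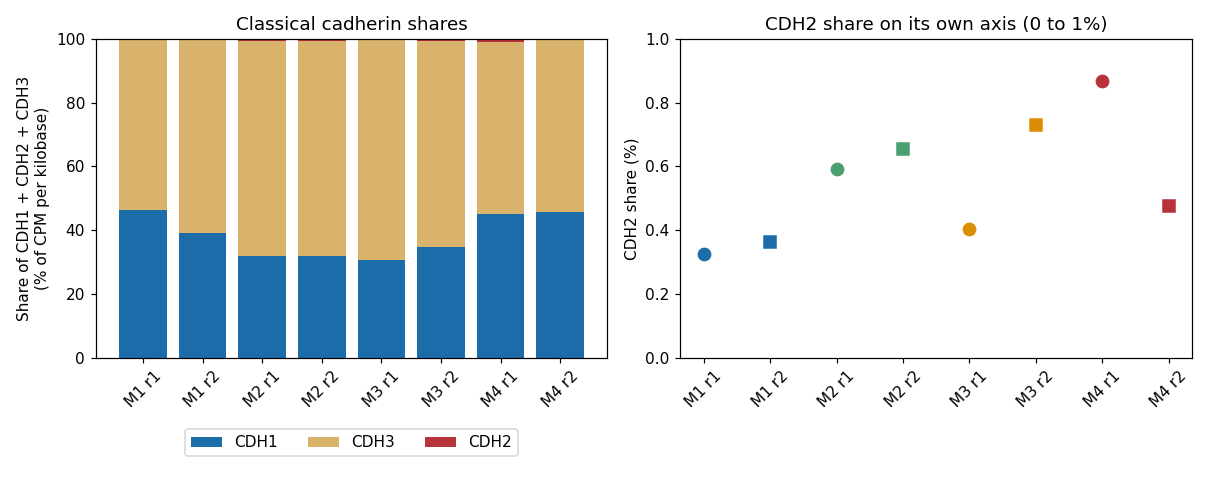
Left, shares of CDH1, CDH3 and CDH2 in the sum of their CPM per kilobase (y axis, %) in each of the 8 libraries (x axis), and right, the CDH2 share alone on an axis from 0 to 1%, circles for replicate 1 and squares for replicate 2. CDH3 and CDH1 fill the bars in every library, and the CDH2 share runs from 0.325% in M1 replicate 1 to 0.869% in M4 replicate 1.

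VIM (ENSG00000026025, GRCh37 chr10:17270240-17279592, plus strand) had the highest mean per kilobase over all libraries, although in M1 cells its mean of 44.8 CPM per kilobase was under the 45.8 of CDH3, and its M1 libraries differed 7.36-fold. It read 55.5 and 408 CPM in M1 cells, 848 and 839 in M2 cells, 1899 and 1099 in M3 cells, and 572 and 451 in M4 cells. Every library of M2, M3 and M4 lay above both of M1, the M3 libraries were the highest, and M4 lay between M1 and M2. The fitted log2 differences from M1 were 1.86 ± 0.775 in M2 (adjusted p = 0.206 from edgeR), 2.69 ± 0.799 in M3 (adjusted p = 0.0520 from edgeR) and 1.14 ± 0.760 in M4 (adjusted p = 0.292 from edgeR). None was called, and neither was M4 against M3 (-1.55 ± 0.767, adjusted p = 0.203 from edgeR).

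Leaving out either M1 library changed these calls on VIM. Without M1 replicate 2, the higher one, VIM was called higher in M2 (log2 3.93, adjusted p = 0.0101 from edgeR), M3 (4.76, 0.00168) and M4 (3.20, 0.00272). Without M1 replicate 1 only M3 was called higher than M1 (1.88, 0.0177). M4 against M3 was called when either M1 library was left out (-1.53 and -1.55, adjusted p = 0.0116 and 0.0114 from edgeR) and when only M3 and M4 were fitted (-1.53, 0.0308). With both doubted libraries left out VIM was called higher than in M1 in M2 (3.92, adjusted p = 0.0465 from edgeR), M3 (4.76, 0.00328) and M4 (3.21, 0.00582), and lower in M4 than in M3 (-1.56, 0.0248). With their exchange no difference in VIM was called, and that of M4 from M1 was 0.18. Per kilobase the VIM level was 0.352 and 2.18 times that of CDH1 in M1 cells, 6.25 and 6.33 times in M2 cells, 17.6 and 8.74 times in M3 cells, and 3.03 and 2.51 times in M4 cells. VIM-AS1 overlaps VIM on the opposite strand and held 37 to 283 counts, against 4592 to 150335 for VIM.

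By comparison, the calls fell as follows, a call being a difference of more than 2-fold whose adjusted p from edgeR passed 0.05. For M4 against M1, 3 of the 10 were called (SNAI1 higher, TWIST2 and ZEB2 lower), beside 20.7% of all genes tested, and the libraries of 8 did not overlap between the lines, beside 67.3% of all genes. For M4 against M2, 3 were called (SNAI1 higher, TWIST1 and TWIST2 lower), beside 13.9%, and 8 did not overlap, beside 73%. For M4 against M3, 3 were called (SNAI1 higher, SNAI2 and TWIST2 lower), beside 10.3%, and 9 did not overlap, beside 60.2%. No test was made of 3 calls in 10 against these shares, and separation of 2 libraries from 2 was common in the whole table. No cadherin was called in any of the 3.

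The comparisons without M4 gave 0 calls of members with edgeR. The share of all genes with an unadjusted p under 0.05 was not counted, so the unadjusted counts of members have no background. For M2 against M1, 3 members had an unadjusted p under 0.05 from edgeR (ZEB1, CDH1 and VIM). DESeq2 called 0 members, beside 1273 of all 18432 genes, and edgeR called 3.37% of all genes. 6 members did not overlap between these lines, beside 61% of all genes. For M3 against M1, 3 had an unadjusted p under 0.05 from edgeR (SNAI2, CDH1 and VIM). DESeq2 called 1 (VIM), beside 2951 of all genes, and edgeR called 13.5% of all genes. 3 members did not overlap, beside 59.4%. For M3 against M2, 2 had an unadjusted p under 0.05 from edgeR (SNAI2 and ZEB1). DESeq2 called 1 (ZEB1), beside 1438 of all genes, and edgeR called 4.15% of all genes. 7 did not overlap, beside 59%.

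**Figure D3:**
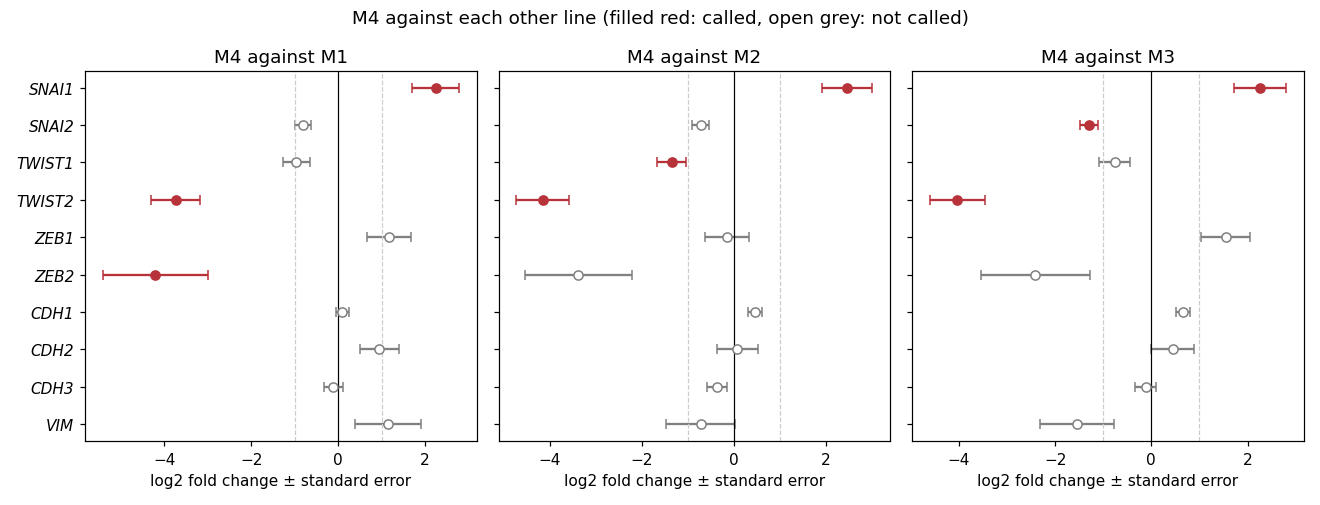
Log2 fold change of each gene in M4 against M1, M2 and M3 (x axis, bars 1 standard error of the edgeR fit, dashed lines at 2-fold), filled red where called. SNAI1 is called higher and TWIST2 lower in all 3 panels, which share the M4 libraries, and the 3 cadherins stay within 2-fold.

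The alternatives for M4 against M1 spread least for TWIST1, SNAI2 and CDH1 and most for ZEB2 and VIM, the pair with discordant M1 libraries. ZEB2 ran from -5.04 to -1.99 and VIM from 0.18 to 3.21 on the log2 scale. SNAI1 ran from 1.47 to 2.76 and TWIST2 from -4.35 to -3.25.

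**Figure D4:**
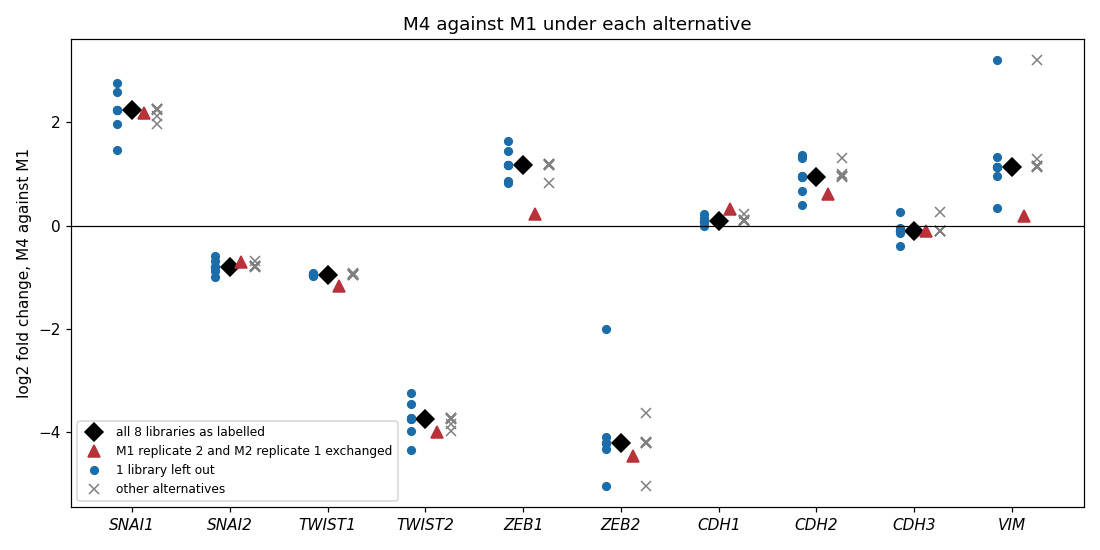
Log2 fold change of each gene in M4 against M1 (y axis) with all 8 libraries as labelled (diamonds), with M1 replicate 2 and M2 replicate 1 exchanged (triangles), with 1 library left out (circles) and under the other alternatives (crosses). SNAI1 stays above 0 and TWIST2 and ZEB2 below 0 throughout, while ZEB2 and VIM move by over 2 log2 units.

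Other genes of the EMT program were read from lists made with earlier results of these data known, and are given as counts in M4 against M1. The median over all genes tested was -0.02 on the log2 scale, and the 10 members had a median of -0.01. Of all genes tested 1748 were called higher and 2075 lower, the 20.7% given above. Of the 25 genes called in the 7 related lists, 10 kept their call with the 2 doubted libraries exchanged. Some of the 25 also lost their call with both left out. Over all genes tested the calls fell from 3823 to 1559 with the exchange, so the losses are not particular to these lists. Of 17 other EMT factors 15 were tested, 3 were called higher and 4 lower (46.7% of those tested), and the median was -0.34. HMGA2, an architectural chromatin protein, rose from 3.90 and 7.84 CPM in M1 to 23.1 and 22.6 in M2 and 81.8 and 67.6 in M4 (log2 3.67, adjusted p = 0.000340 from edgeR), and was called in M2 against M1 too (1.96, adjusted p = 0.0134 from edgeR). With the exchange HMGA2 was called in neither (2.47, adjusted p = 0.0904 from edgeR, in M4 and 0.17, 1.0, in M2). ETS1 rose from 15.8 and 26.9 to 134 and 129.9 CPM (2.63). TCF4, a partner of Twist factors, fell from 14.8 and 18.2 to 3.19 and 5.73 CPM (-1.89), and FOXC2 fell from 5.46 and 1.66 to 0.0176 and 0.256 CPM (-4.79). FOXC2 was not called with both doubted libraries left out (adjusted p = 0.0605 from edgeR).

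Of 20 mesenchymal genes 17 were tested, 1 was called higher and 6 lower (41.2%), and the median was -1.05. The matrix protease MMP2 fell from 4.83 and 23.5 CPM in M1 to 0.203 and 0.551 in M4, SPARC, a matrix protein, from 39.4 and 181 to 19.9 and 14.4, and S100A4, a calcium-binding protein, from 35.4 and 19.6 to 3.96 and 4.47. ITGA5, the fibronectin receptor subunit, rose from 55.1 and 49.4 to 189 and 197 CPM (log2 1.89). With the exchange SPARC (-1.03, adjusted p = 0.376 from edgeR), ITGA5 (1.29, 0.0783), FBN1 (-0.95, 0.174) and PDGFRA (-5.14, 0.0593) were not called. Of 19 epithelial genes 18 were tested, 3 were called higher and 2 lower (27.8%), and the median was 0.20. The adhesion protein EPCAM rose from 49.9 and 72.6 to 166 and 199 CPM and KLF4 from 13.8 and 12.9 to 35.2 and 25.2 CPM, whereas EHF and the basal factor TP63 fell, TP63 from 89.5 and 108 to 36.2 and 39.8 CPM. With the exchange KLF4 (0.86, adjusted p = 0.119 from edgeR) and EHF (-1.27, 0.0561) were not called, nor was KLF4 with both left out (1.13, 0.0678). EPCAM and TP63 are also in the luminal and basal lists above.

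Of 12 catenins and partners 10 were tested, with 1 called higher and 1 lower (20%) and a median of 0.11. CTNND2 (delta-catenin) held 328 and 331 counts in M1 cells, 27 and 31 in M2 cells, 5 and 2 in M3 cells, and 0 and 0 in M4 cells, which is at least 123-fold lower in M4 cells than in M1 cells when 3 counts are taken as the floor of each M4 library. It was called lower in M2 as well (-3.51, adjusted p = 0.0170 from edgeR), where CTNNAL1, a relative of alpha-catenin, was higher (1.32, adjusted p = 0.0113 from edgeR). With the exchange M1 would hold 328 and 27 counts of CTNND2 and M2 331 and 31, far apart within each line. CTNND2 then gave 0.09 and CTNNAL1 0.03 in M2 against M1. With both left out, which leaves 1 library in each of these lines, they gave -3.16 and 1.47. In M4 against M1 the exchange left CTNND2 just short of a call (adjusted p = 0.0503 from edgeR). Of 19 other cadherins 9 were tested, with 0 called higher and 2 lower (22.2%): CDH13 fell from 33.2 and 35.3 to 4.13 and 10.2 CPM and CDH24 from 4.74 and 4.52 to 1.01 and 1.29 CPM. CDH13 was not called with the exchange (adjusted p = 0.0700 from edgeR) or with both left out (0.185). Their fitted median was -1.86, or -1.44 over 8 once CDH4, with 4 and 0 counts in M1 and 0 in M4, is left out. Some of those 8 were poorly measured too. CDH16 held 1083 and 0 counts in the M1 libraries and CDH11 0 and 42. CDH18, whose value is the -1.86, held 30 and 61 in M1 and 17 and 12 in M4. Of 11 other filament genes outside the keratins, 6 were tested and 0 called in M4 against M1, with a median of 0.46. In M2 against M1 the lamins LMNB1 (1.54) and LMNB2 (1.15) were called higher, but with the exchange they gave 0.05 and -0.02, and with both left out neither was called (adjusted p = 0.128 and 0.160 from edgeR). Of 18 corepressors and turnover factors of the Snail and ZEB proteins, all tested, 2 were called higher (GSK3B 1.60, PAK1 1.08) and 0 lower (11.1%), with a median of 0.25. PAK1 was not called with the exchange (0.90, adjusted p = 0.103 from edgeR).

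**Figure D5:**
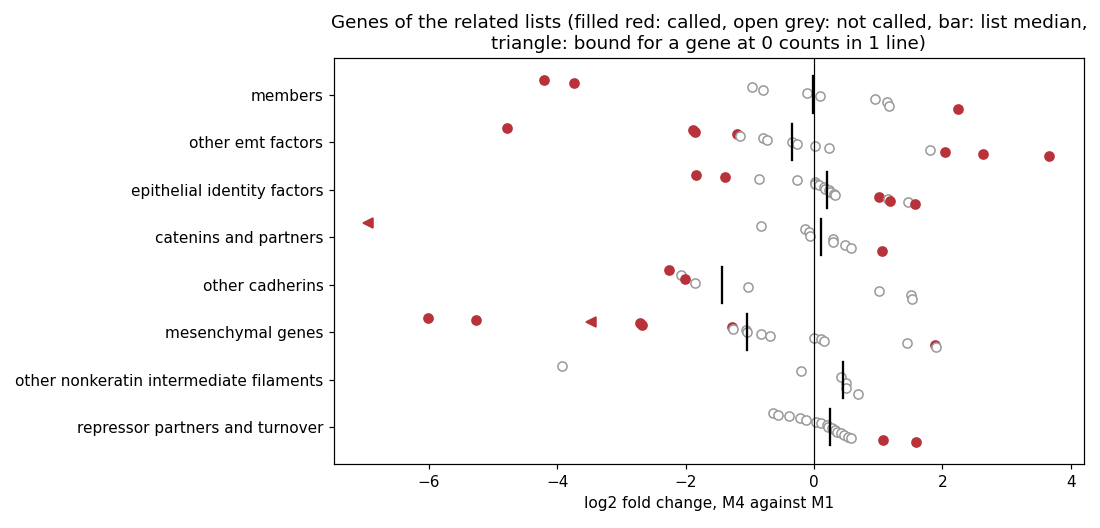
Log2 fold change in M4 against M1 (x axis) of the genes tested in the 10 members and 7 related lists (y axis), red where called, with a bar at the median of each list and a triangle at the bound for a gene at 0 counts in 1 line. Of the mesenchymal genes, whose 17 tested have a median of -1.05, 6 of the 7 called lie to the left of 0, while the 10 members spread to both sides.

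Genes around each member were read as a description, in a window chosen after the values were seen. Within 2 Mb of SNAI1 34 other genes were tested, with a median of 0.20 in M4 against M1 and 0 called higher and 2 lower. Around TWIST2 30 were tested, with a median of 0.23 and 4 called higher and 3 lower. Around SNAI2 8 were tested, 3 of them called lower and 0 higher, with a median of -0.36. Over all genes tested 20.7% were called in M4 against M1, and the windows of the other members are not given here. The members themselves changed by 2.25 (SNAI1), -3.74 (TWIST2) and -0.80 (SNAI2) in this comparison.

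Among 9658 genes with a mean log2 CPM of at least 3, those whose log2 CPM followed a member other than SNAI1 most closely over the 8 libraries were CNIH1 (Pearson's r 0.988) and TMEM123 (0.971) for SNAI2, C4orf3 (0.986) and MRPL32 (0.985) for TWIST1, and SOX12 (0.992) and SMARCD2 (0.985) for TWIST2. For ZEB1 they were ENTPD5 (0.959) and CXXC1 (0.954), for ZEB2 PEX3 (0.985) and ATP1B3 (0.985), and for VIM EFNB1 (0.990) and EXT2 (0.973). For CDH1 they were PIGG (0.985) and AFG3L1P (0.981), for CDH2 THAP9-AS1 (0.994) and U2AF1 (0.980), and for CDH3 RARA (0.942) and ARMC9 (0.930). These are the best of 9658 genes over 8 libraries that share lines and depth. Pearson's r leaves out the size of a change. PEX3 ran from 14.9 to 26.1 CPM, whereas ZEB2 differed 36-fold between its highest and lowest library. ENTPD5 ran from 9.65 to 13.8 CPM, whereas ZEB1 differed 5.16-fold.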

How the data were processed

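RNA-seq of M1 to M4 (8 libraries, 2 per line, lines and replicate numbers from the sample labels) was read from expected counts per gene as deposited by the authors, made from paired-end poly A+ reads with Trimmomatic, STAR on hg19 and RSEM on GENCODE v19. Their versions and the strand setting are not given in the sources used here. Expected counts (12.8% not whole) were rounded. Nothing states separate cultures beyond the word biological, so p-values measure the spread between these samples, which may be technical.

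The fit was made with edgeR 4.0.16 under R 4.3.3 (filterByExpr, TMM factors, robust quasi-likelihood F test, 1 coefficient for each line over all libraries), adjusted by Benjamini-Hochberg over 18432 genes. SE is the one implied by F. CPM uses TMM-scaled totals, and lengths and GRCh37 positions come from GENCODE 44. The fit was tested on simulated data. Python 3.11.15 with pandas 2.3.3, numpy 2.4.6 and matplotlib 3.10.9 did the rest. Counts limit precision: a gene with 10 to 100 counts carries a large counting error.

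Alternatives were DESeq2 1.42.0, its size factors, no filter, at least 10 counts in every replicate of 1 line, a replicate block, a fit of the 2 lines compared, no minimum fold, exchange or omission of 2 doubted libraries, and omission of each library in turn. Lengths by the longest transcript were added for the cadherin ratios after seeing the data. Replicate numbers did not pair the libraries (correlations of deviations from -0.02 to 0.12).

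The genes named are the 10 members, HRAS, overlapping antisense genes, markers, and, per related list, up to 4 called genes with the largest change in M4 or M2 against M1, with 100 counts or more in both libraries of the line where they were higher. CDH4, CDH11, CDH16, CDH18, FN1, POSTN, PDGFRA and FBN1 were named after their values were seen. For each member except SNAI1 the 2 closest patterns are given, and those of SNAI1 are not reported here. Members and lists were chosen with earlier results of these data known.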

Additional observations from a re-analysis of the deposited data

How the results depend on the processing

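Each of 60 fold changes of the members was computed under 17 alternatives, 1020 values in all, of which 924 kept direction and side of the threshold, 36 passed it only there, 27 no longer passed and 33 changed sign. Most of the 60 were not called with all libraries and had no call to lose. The 27 fell on SNAI1 in M4 against M1 (4 of 17 alternatives), M2 (4) and M3 (7). The rest were TWIST1 in M4 against M2 (6) and ZEB2 in M4 against M1 (6). The alternative with no minimum fold keeps the fitted value, so it can neither end a call nor change a sign. With all libraries and settings as reported, 0 members were called for M2 against M1, M3 against M1 and M3 against M2, 3 in each comparison of M4, and 4 over all lines. With no filter on low counts these were 1 for M2 against M1 (beside 1789 of all genes) and 2 for M3 against M1 (3458). They were 1 for M3 against M2 (1879), 6 for M4 against M3 (2915) and 8 over all lines (9292 of 29446 genes). With DESeq2 they were 1 for M3 against M1 (2951), 1 for M3 against M2 (1438) and 8 over all lines (9057 of 18432 genes). M3 against M1 also gave 1 with no minimum fold (3919) and with at least 10 counts (2569 of 17805 genes). Leaving out 1 library, or both doubted libraries, moved the members called in some comparisons, and moved the calls over all genes too. Such fits leave a line with 1 library, so their counts are not set out here. The cause was not tested.

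Replicate numbers did not pair the libraries, and with the replicate block the members called were 0 for M2 against M1, M3 against M1 and M3 against M2, 3 for M4 against M1 and M4 against M3, 4 for M4 against M2 (ZEB2 added, log2 -3.45, adjusted p = 0.0360 from edgeR) and 4 over all lines. It changed no other call of a member. Over all 18432 genes the block gave 587 calls for M2 against M1, 2338 for M3 against M1 and 675 for M3 against M2. It gave 3628 for M4 against M1, 1756 for M4 against M3, 2462 for M4 against M2 and 5938 over all lines.

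With M1 replicate 2 and M2 replicate 1 exchanged, sign changed in M2 against M1 for SNAI2 (0.12), TWIST1 (-0.0059), TWIST2 (-0.089), ZEB1 (-0.31) and CDH1 (0.13), in M3 against M2 for TWIST2 (0.11) and in M4 against M2 for ZEB1 (0.53). With both left out, it changed for SNAI2 in M2 against M1 (0.046) and CDH3 in M4 against M1 (0.27). DESeq2 and its size factors gave CDH3 in M3 against M1 at -0.0016. Leaving out 1 library, M2 against M1 ran from -0.49 to 0.11 for SNAI1, -0.19 to 0.040 for SNAI2, -1.66 to 1.37 for ZEB2 and -0.043 to 0.64 for CDH3. M3 against M1 ran from -0.49 to 0.36 for SNAI1, -0.73 to 0.20 for TWIST1, -0.39 to 0.76 for TWIST2, -0.93 to 0.088 for ZEB1, -3.88 to 0.40 for ZEB2, -0.0069 to 0.90 for CDH2 and -0.29 to 0.39 for CDH3. M4 against M1 ran from -0.0085 to 0.22 for CDH1 and -0.39 to 0.27 for CDH3. M3 against M2 ran from -0.27 to 0.58 for SNAI1, -0.80 to 0.34 for TWIST2 and -0.88 to 0.020 for CDH2. M4 against M2 ran from -0.46 to 0.12 for ZEB1 and -0.47 to 0.50 for CDH2, and M4 against M3 from -0.11 to 0.96 for CDH2. None of these was called with all libraries.

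The ratio of CDH2 to CDH1 (0.0082 for M1, 0.0195 for M2, 0.0171 for M3 and 0.0149 for M4) was 0.0138, 0.0330, 0.0289 and 0.0252 by the longest transcript, and 0.0128 in M1 and 0.0149 in M2 with the exchange. The ratio of CDH3 to CDH1 was 2.40 in M2, 2.34 in M3 and 1.35 in M4 by the longest transcript, and 1.83 in M2 with the exchange. With 2 libraries per line, 1 library can make or end a call, and ZEB1 (20 to 148 counts) and TWIST2 in M4 (12 and 18) are limited by counting as well. The longest transcript as length, and the exchange and omission for the related lists, were added after seeing the data.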
